A study of Mus musculus with 24 samples.

Results

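The genes of lipoprotein lipase and of 4 proteins that control it were followed through the day in mouse fat. They are Angptl4 and Angptl8, which encode regulators of the enzyme's activity, Lpl, which encodes the enzyme, Gpihbp1, which encodes its carrier on capillaries, and Lmf1, which encodes its folding factor. They were taken as all probe sets (the groups of probes that read 1 transcript region) assigned to these 5 symbols in the platform's gene table. That gave 6 probe sets of 34390 on the array, 2 of them for Lpl, and 5 genes of 22180 with a probe set of their own. All 5 genes passed the filter on low signals, as did 15526 genes in all.

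The 24 Affymetrix arrays hold RNA from eWAT, the usual short form for epididymal white adipose tissue, with 1 array per mouse and 3 mice in each of 8 groups. MUT mice carry Syt10-Cre/Cre x Bmal1-flox/- and CON mice carry Syt10-Cre/Cre x Bmal1-+/-, so both genotypes have Cre on both alleles and lack 1 copy of Bmal1. Cre is driven from the Syt10 locus, and per the labels MUT mice have no working clock in the SCN, the suprachiasmatic nucleus, which paces daily rhythms from the hypothalamus. All mice lived in a light-dark cycle for 2 weeks, were moved to constant darkness and were killed on day 2 at circadian time (CT) 1, 7, 13 and 19, which are 6 h apart. Ages are not given in the labels. The comparison addresses which daily rhythms in fat persist when that pacemaker has no clock.

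Lipoprotein lipase cuts triglycerides of circulating lipoproteins and so supplies fatty acids to fat and muscle. Adipocytes make the enzyme, LMF1 helps it to fold in the endoplasmic reticulum, and GPIHBP1 carries it across endothelial cells to the capillary lumen. ANGPTL4 inactivates the enzyme in fat during fasting. ANGPTL8 is induced by feeding and insulin in fat and liver and is known to blunt the action of ANGPTL4 in fat.

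Array medians lay between 7.80 and 7.94 on the log2 scale. Titles and treatment text give eWAT as the tissue, but the source field gives mediobasal hypothalamus, so markers of both were read. Adipocyte markers had a median percentile of 99.7 among the signals of all genes (9 of 10 listed genes measured), endothelial markers of 91.8 (9 of 9), and hypothalamic and neuronal markers of 43.2 (12 of 13). The spread of signals within an array, as its interquartile range, ran from 1.94 to 2.18, and the 3 narrowest arrays were all CON (CT13 replicate 1, CT7 replicates 2 and 3). Many of the tests and counts of calls that rest on them are also given without these arrays. That fit leaves 1 CON mouse at CT7, assumed to vary like the other groups. In whole tissue, fewer cells of a type and less RNA per cell cannot be told apart.

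Angptl8 peaked at CT17.8 and Angptl4 at CT3.53 in CON mice, and at CT19 the genotypes differed in opposite directions: Angptl8 was 5.90-fold lower and Angptl4 1.91-fold higher in MUT than in CON. Gpihbp1 was rhythmic in CON with a smaller range, and its CT19 level was 1.29-fold higher in MUT. No test of Lpl or Lmf1 passed. A rhythm was called where a 24-h cosine fitted to the 4 group means passed limma's moderated F test at a Benjamini-Hochberg adjusted p under 0.05 over 15526 genes, and its size is the log2 difference between fitted peak and trough. Errors of sizes and differences are SE of that model, errors of group means are SD, and n = 3 arrays per group throughout. The plot of each mouse's signal shows all 6 probe sets.

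**Figure D1:**
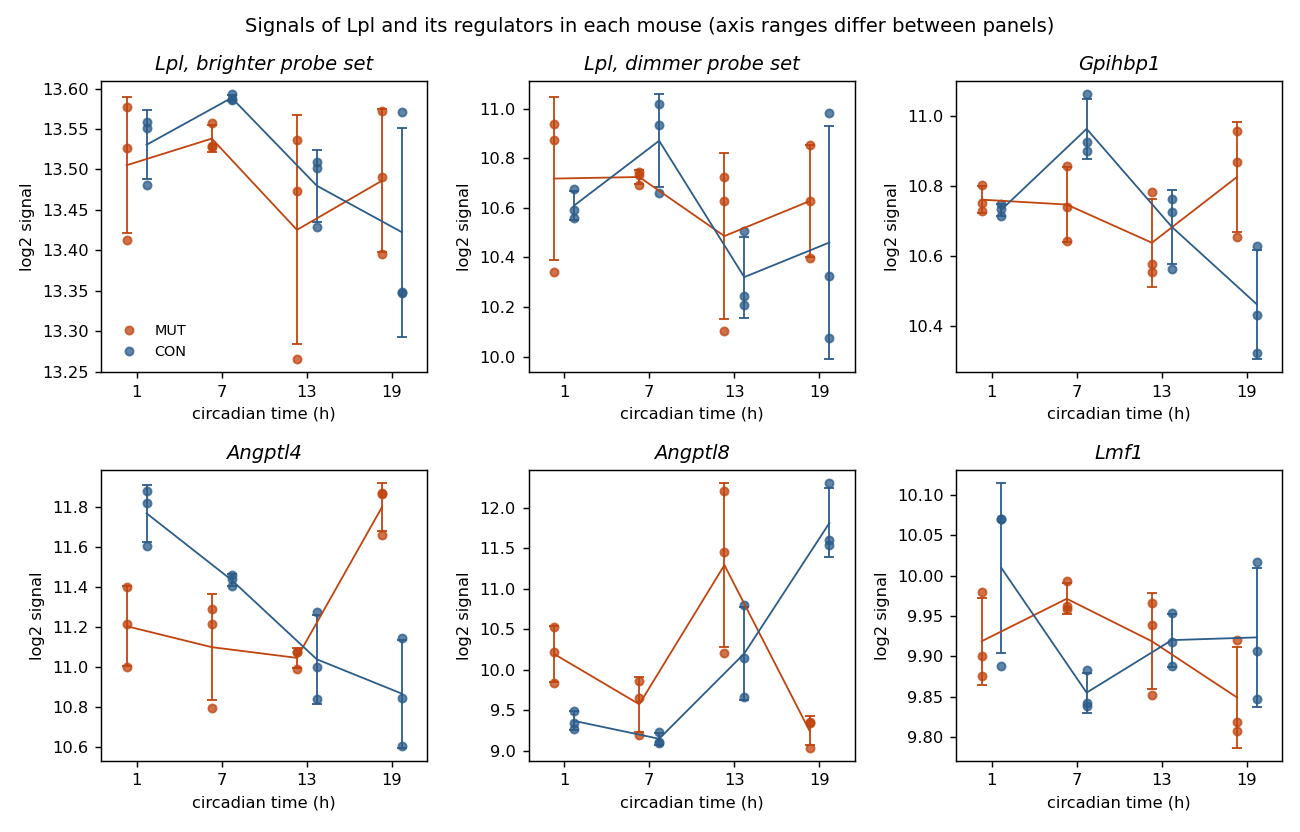
Log2 signal (vertical axis) by circadian time (horizontal axis, h) for the 6 probe sets, with MUT in orange left of CON in blue. Points are single mice, lines join group means and bars are SD (n = 3). Angptl8 was highest at CT13 in MUT and at CT19 in CON, whereas the brighter Lpl probe set and Lmf1 stayed within narrow ranges. Axis ranges differ between panels.

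In MUT 1 of the 5 genes had a called rhythm (Angptl4), beside 0.348% of all genes. In CON 3 of 5 did (Angptl4, Angptl8 and Gpihbp1), beside 17.1% of all genes. The rhythm itself differed between the genotypes for the same 3 genes, beside 1.44% of all genes. At CT19 MUT differed from CON in 3 of 5 genes, 2 higher and 1 lower, beside 2.74% of all genes (1.93% higher and 0.812% lower). At the other times limma called 0 of 5, beside 0.0451% of all genes at CT1, 4.05% at CT7 and 0.322% at CT13. At an unadjusted p under 0.05 the counts there were 2, 2 and 1 of 5, beside 1791, 3195 and 3073 of all 15526 genes. Without the 3 narrowest arrays the CON rhythms were 2.83 for Angptl8 (limma, adjusted p = 0.00716), 0.85 for Angptl4 (0.0141) and 0.60 for Gpihbp1 (0.0164), and the rhythm differences of Angptl8 and Angptl4 still passed (0.0470 and 0.0190). The shares of all genes then were 6.51% for the CON rhythm, 0.258% for the MUT rhythm, 1.13% for the rhythm difference, 0.316% at CT7, 2.77% at CT19 and 1.91% for the daily mean. The daily mean was called in 0 of 5 genes, beside 21.7% of all genes. Unadjusted, 0 of 5 passed, beside 5898 of all 15526 genes. The ranges of the 3 mice did not overlap between genotypes for 2 of the 5 genes at CT1 (18.9% of all genes) and for 4 at CT7 (25.6%). They did not overlap for 0 of 5 at CT13 (22.2%) and for 3 at CT19 (27.3%).

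Angptl8, the feeding-induced regulator, had its highest signals in MUT at CT13 and in CON at CT19. In MUT the 3 mice had log2 signals of 9.84, 10.22 and 10.53 at CT1 and of 9.86, 9.20 and 9.66 at CT7. They had 10.21, 11.46 and 12.21 at CT13 and 9.04, 9.35 and 9.36 at CT19. The CT13 mice of this genotype spanned 4.01-fold, the widest group of this gene, and the lowest of them lay within the range at CT1. In CON the mice of CT1 had 9.26, 9.50 and 9.35, those of CT7 9.12, 9.23 and 9.10, those of CT13 10.14, 10.80 and 9.66, and those of CT19 11.60, 12.30 and 11.53. The CON mice of CT19 lay above all other CON mice, and those of CT1 and CT7 lay close together near the bottom of the range.

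The genotypes were furthest apart at CT19, where no MUT mouse reached the lowest CON mouse. Angptl8 averaged 9.25 ± 0.18 in MUT and 11.81 ± 0.43 in CON at that time, a difference of -2.56 ± 0.33 (adjusted p = 0.00033, limma). This was the largest difference of any of the 15526 genes at CT19. At CT13 it averaged 11.29 ± 1.01 in MUT and 10.20 ± 0.57 in CON, with overlapping ranges and a difference of 1.09 ± 0.33 that did not pass (limma, adjusted p = 0.119). Without the lowest MUT mouse of CT13 (replicate 1) that difference was 1.63 and passed (limma, adjusted p = 0.00838), and without the highest (replicate 3) it was 0.63 and did not. Without the 3 narrowest arrays, which include replicate 1 of CON at CT13, it was 1.06. At CT1 the ranges did not overlap, at 10.19 ± 0.35 in MUT and 9.37 ± 0.12 in CON, but the difference of 0.82 ± 0.33 did not pass (limma, adjusted p = 0.320). At CT7 the difference was 0.43 ± 0.33 (limma, adjusted p = 0.484), and 0.46 without the 3 narrowest arrays (adjusted p = 0.786).

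The fitted rhythm of Angptl8 in CON was 2.79 ± 0.33 (6.90-fold) with a peak at CT17.8 (limma, adjusted p = 4.29e-05), and 1 gene had a larger one. The fitted cosine in MUT was 1.14 ± 0.33 with a peak at CT11.9 and was not called (limma, adjusted p = 0.186). It was called at 1.67 without the lowest mouse of CT13 (limma, adjusted p = 0.00855), and was 0.72 without the highest (adjusted p = 0.433). A test of any difference among the 4 time points, which assumes no cosine, passed in MUT with a range of 2.04 between group means (limma, adjusted p = 0.00955), beside 0.425% of all genes. The vector difference between the rhythms, MUT minus CON, was 3.00 ± 0.47 peak to trough (limma, adjusted p = 0.00391). The highest group means of Angptl8, MUT at CT13 and CON at CT19, differed by 0.52, and their ranges overlapped. No neighbours in the order of the 8 group means had separate ranges.

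Angptl8 lies within the span of Dock6, a gene on the opposite strand that encodes a guanine nucleotide exchange factor. Whether the probes read strands apart is not given in the sources used here, so Dock6 is set beside it. Dock6 averaged 9.82 ± 0.06 in MUT and 9.65 ± 0.10 in CON at CT19, and the difference of 0.18 ± 0.08 was not called and ran the other way (limma, adjusted p = 0.194). Its fitted rhythm in CON was 0.14 ± 0.08 (limma, adjusted p = 0.388).

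Of the 5 genes, 2 (Angptl8 and Lmf1) matched an entry in the table of promoter windows, which hold 250 bases before and 50 after the gene's start (RefSeq, GRCm38.p6). The Angptl8 window is printed because this gene had the largest changes, and it covers chr9:21835260-21835559 on the plus strand. Capitals mark a C/EBP form, TTGNGNAA on either strand, found 100 bases before the start, and GGGTCA, found 65 bases before it.
Angptl8 promoter: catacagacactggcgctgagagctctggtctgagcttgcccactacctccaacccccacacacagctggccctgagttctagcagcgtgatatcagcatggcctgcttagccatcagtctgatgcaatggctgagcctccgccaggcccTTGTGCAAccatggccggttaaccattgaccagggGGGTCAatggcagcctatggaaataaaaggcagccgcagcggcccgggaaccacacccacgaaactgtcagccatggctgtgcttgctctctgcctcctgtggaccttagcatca
Of 32851 windows of the same length, 13.28% held TTGNGNAA and 13.7% held GGGTCA. Searched on both strands and not found in this window were the E-box CACGTG (in 7.15% of windows), the nuclear receptor half-site AGGTCA (16.26%), the D-box core TTANNTAA (6.003%) and the glucocorticoid half-site pair (0.4749%). The searched letters do not overlap each other in this window. The Lmf1 window, of a gene with no called change, held none of the 6 motifs. The motifs were chosen with the sequence in view, and a match is a description of letters only.

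Angptl4, the fasting-induced inhibitor, was highest at CT19 in MUT and at CT1 in CON. In MUT the mice of CT1 had log2 signals of 11.00, 11.21 and 11.40, those of CT7 of 10.80, 11.29 and 11.21, those of CT13 of 11.08, 11.07 and 10.99, and those of CT19 of 11.87, 11.66 and 11.87. All MUT mice of CT19 lay above all other MUT mice, and the ranges of the remaining times overlapped. In CON the mice of CT1 had 11.61, 11.82 and 11.88, those of CT7 11.44, 11.40 and 11.46, those of CT13 10.84, 11.00 and 11.28, and those of CT19 10.85, 10.61 and 11.15. The CON signals thus lay in separate ranges at CT1 and at CT7, with CT13 and CT19 below both and overlapping each other.

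At CT19 Angptl4 averaged 11.80 ± 0.12 in MUT and 10.87 ± 0.27 in CON, and the ranges did not overlap. The difference was 0.93 ± 0.13 (limma, adjusted p = 0.000621). At CT1 the order was turned, with 11.20 ± 0.20 in MUT and 11.77 ± 0.14 in CON, and at CT7 with 11.10 ± 0.27 in MUT and 11.44 ± 0.03 in CON. Ranges did not overlap at either time, but the differences of -0.56 ± 0.13 (limma, adjusted p = 0.0959) and -0.34 ± 0.13 (adjusted p = 0.155) did not pass. With arrays weighted by their quality in limma, the CT1 difference was -0.59 and passed (adjusted p = 0.0336). Without the 3 narrowest arrays the CT7 difference was -0.34 (limma, adjusted p = 0.502). At CT13 the means were 11.05 ± 0.05 in MUT and 11.04 ± 0.22 in CON.

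The rhythm of Angptl4 was called in both genotypes. It was 0.72 ± 0.13 (1.65-fold) in MUT with a peak at CT19.8 (limma, adjusted p = 0.0372) and 0.93 ± 0.13 (1.90-fold) in CON with a peak at CT3.53 (adjusted p = 0.000389). The vector difference was 1.39 ± 0.19 (limma, adjusted p = 0.000972). The MUT call ended without any of 7 single arrays, with adjusted p between 0.0186 and 0.175 over all 24 omissions, and without the 3 narrowest arrays (0.0633). Those 7 were replicates 1 and 3 of MUT at CT7, replicates 1, 2 and 3 of MUT at CT19 and replicates 2 and 3 of CON at CT7. The highest group means, MUT at CT19 and CON at CT1, differed by 0.03, less than the SD of either group.

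**Figure D2:**
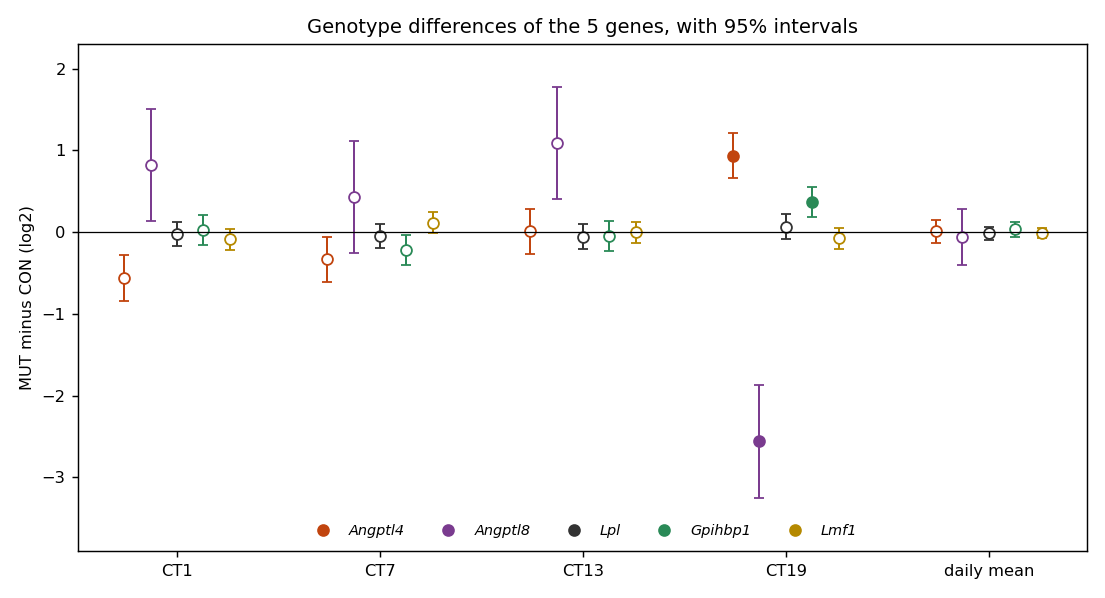
MUT minus CON in log2 units (vertical axis) at each circadian time and over the daily mean (horizontal axis) for the 5 genes. Points are limma estimates, bars are 95% intervals, and filled points passed an adjusted p of 0.05. The filled points all stand at CT19, where Angptl8 lies at -2.56, Angptl4 at 0.93 and Gpihbp1 at 0.36.

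The plot of genotype differences shows that the daily means of Angptl4 and Angptl8 lay near equality while their levels at CT19 did not. The daily mean difference was 0.01 for Angptl4, with a 95% interval from -0.13 to 0.15, and -0.06 for Angptl8, with an interval from -0.40 to 0.29. The 2 genes had opposite signs of MUT minus CON at CT1, CT7 and CT19.

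Across the 24 arrays Angptl4 and Angptl8 had a Pearson correlation of -0.70, given as a description, since arrays share groups and time points. After group means were removed, the correlation over 24 arrays was -0.31 (Spearman -0.30) and did not pass a test of 100000 permutations within groups (p = 0.164, adjusted p = 0.516 over 10 pairs of genes; Spearman p = 0.263). It was -0.18 without the 2 arrays whose Angptl4 deviations lay farthest from the median. Within MUT alone it was -0.13 and within CON alone -0.58, and neither passed the permutation test (adjusted p = 0.907 and 0.867). The plot of Angptl4 against Angptl8 shows the mice that hold the ends of this relation.

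**Figure D3:**
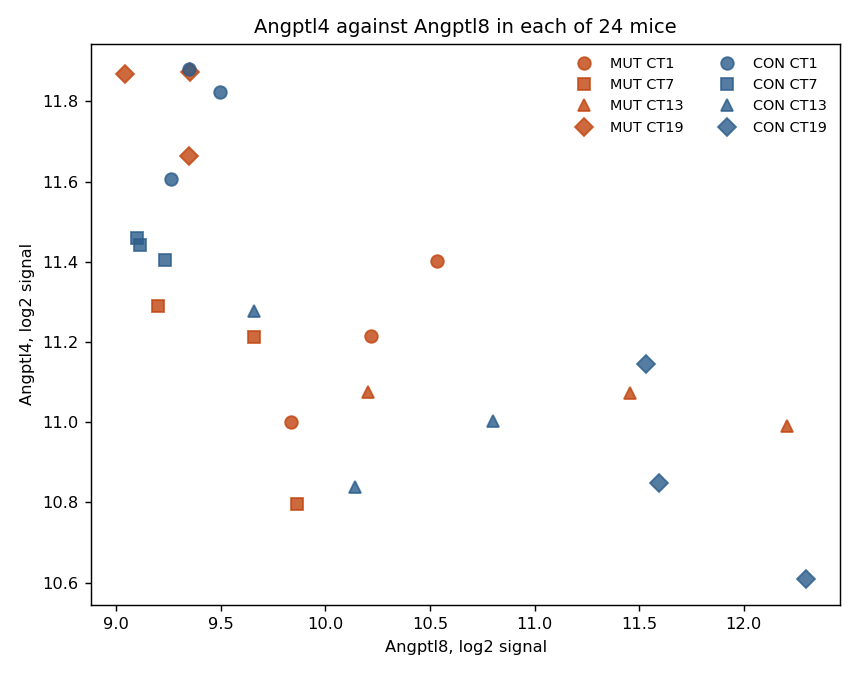
Log2 signal of Angptl4 (vertical axis) against that of Angptl8 (horizontal axis) in each of 24 mice, with MUT in orange, CON in blue and the time points as shapes. The 3 MUT mice of CT19 sit at the upper left (Angptl8 of 9.04 to 9.36 and Angptl4 of 11.66 to 11.87), and the 3 CON mice of CT19 sit at the lower right (Angptl8 of 11.53 to 12.30 and Angptl4 of 10.61 to 11.15).

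Markers of adipocytes, the main source of both transcripts in fat, were read beside them. The mean of 9 adipocyte markers at CT19 ran from 12.81 to 12.83 in MUT and from 12.50 to 12.76 in CON. There 1 of the 9 (Pck1) was called higher in MUT, beside 1.93% of all genes. Among the 9, Fabp4 is also in the list of fatty acid uptake used further on. In MUT 0 of the 9 had a called rhythm and in CON 3 (Lep, Pck1 and Lipe), beside the shares of all genes of 0.348% and 17.1%. The rhythm differed for 2 (Lep and Pck1), beside 1.44% of all genes. Lep, the adipocyte hormone leptin, was also called higher in MUT at CT1, at CT7 and in the daily mean. The shares of all genes called in either direction there were 0.0451%, 4.05% and 21.7%. Without the 3 narrowest arrays 1 of the 9 was rhythmic in CON and 1 differed in rhythm (both Lep).

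The mean of the 6 brown adipocyte markers also lay apart at CT19, from 7.82 to 7.91 in MUT and from 8.04 to 8.68 in CON, with 0 of the 5 tested called there. It lay apart at CT1 too, from 7.92 to 8.02 in MUT and from 8.17 to 8.30 in CON, and narrowly at CT7, but not at CT13. In the daily mean 2 of the 5 (Cidea and Ucp1) were called lower in MUT, beside 21.7% of all genes called in either direction. Neither was called without the 3 narrowest arrays. The brown markers had a median percentile of 40.2 among the signals of all genes, below the hypothalamic and neuronal markers (43.2). Their median daily mean difference was -0.12. Other dim lists had -0.11 (hypothalamic and neuronal), -0.15 (skeletal muscle) and -0.09 (epididymis). Replicate 2 of CON at CT19 had the lowest adipocyte mean (12.50) and the highest brown mean (8.68) of the 6 mice of that time, and also the highest Angptl8 and the lowest Angptl4 and Gpihbp1. Without it the CT19 differences were -2.32 for Angptl8 (limma, adjusted p = 0.00404) and 0.80 for Angptl4 (0.0105), and Gpihbp1 was not called. Of the 8 mesothelial markers, of the lining of the fat pad, 0 had a called rhythm in MUT and 8 in CON, with median fitted sizes of 0.84 in MUT and 1.17 in CON, and 0 of 8 differed in rhythm. In CON 1 of the 8 stayed called without the 3 narrowest arrays. Their mean at CT19 was 9.73 ± 0.28 in MUT and 9.46 ± 0.14 in CON, and in the daily mean 4 of 8 were called higher in MUT, or 0 of 8 without the 3 narrowest arrays. Beside the mesothelial counts, the shares of all genes were 0.348% for the MUT rhythm, 17.1% for the CON rhythm and 21.7% for the daily mean. The part of the brown adipocyte and mesothelial markers in the results was not tested.

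Lpl itself, the enzyme, was nearly flat on its brighter probe set. That probe set averaged 13.50, at percentile 99.9 among the signals of all genes. Whether changes in RNA are read in full at so high a signal was not tested. MUT mice of CT1 had log2 signals of 13.41, 13.53 and 13.58, those of CT7 of 13.56, 13.53 and 13.53, those of CT13 of 13.54, 13.27 and 13.47, and those of CT19 of 13.40, 13.49 and 13.57. CON mice of CT1 had 13.55, 13.48 and 13.56, those of CT7 13.59, 13.59 and 13.59, those of CT13 13.50, 13.51 and 13.43, and those of CT19 13.35, 13.35 and 13.57. The 8 group means spanned 0.17 (1.12-fold), beside a pooled SD of 0.08. Only at CT7 were the genotype ranges apart, with MUT lower by a difference of -0.05 ± 0.07 that did not pass (limma, adjusted p = 0.732; 0.913 without the 3 narrowest arrays).

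The fitted cosine of Lpl was 0.10 ± 0.07 in MUT (limma, adjusted p = 0.736) and 0.17 ± 0.07 in CON (adjusted p = 0.197), and the daily mean difference was -0.02 with a 95% interval from -0.09 to 0.06. At CT19 the difference was 0.06, with an interval from -0.09 to 0.21. The dimmer probe set had group means from 10.32 to 10.87, a span of 1.46-fold beside a pooled SD of 0.26. Its fitted cosine was 0.25 ± 0.19 in MUT (limma, adjusted p = 0.747 over all probe sets) and 0.50 ± 0.19 in CON (adjusted p = 0.173). Both probe sets were highest in CON at CT7 and correlated at 0.80 over the 24 arrays (Spearman 0.75), as a description of 2 readings of the same RNA. After group means were removed they also correlated at 0.80.

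Gpihbp1, the capillary carrier, was high at CT7 and low at CT19 in CON and had overlapping ranges at all times in MUT. MUT mice of CT1 had log2 signals of 10.75, 10.73 and 10.80, those of CT7 of 10.74, 10.86 and 10.64, those of CT13 of 10.55, 10.78 and 10.58, and those of CT19 of 10.96, 10.87 and 10.65. CON mice of CT1 had 10.75, 10.74 and 10.71, those of CT7 11.06, 10.90 and 10.93, those of CT13 10.56, 10.73 and 10.76, and those of CT19 10.63, 10.32 and 10.43. All CON mice of CT7 lay above every MUT mouse of that time, and all MUT mice of CT19 lay above every CON mouse of that time.

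The CT19 difference was 0.36 ± 0.09 (1.29-fold; limma, adjusted p = 0.0311), from means of 10.83 ± 0.16 in MUT and 10.46 ± 0.16 in CON. That call ended without replicate 1 (limma, adjusted p = 0.148) or 2 (0.125) of MUT at CT19, and without replicate 2 (0.221) or 3 (0.0577) of CON at CT19. The CT7 difference of -0.22 ± 0.09 did not pass (limma, adjusted p = 0.160) but did with array weights (-0.23, adjusted p = 0.0415), and without the 3 narrowest arrays it was -0.31 and did not (adjusted p = 0.277). The fitted cosine was 0.15 ± 0.09 in MUT (limma, adjusted p = 0.615) and 0.50 ± 0.09 in CON with a peak at CT6.63 (adjusted p = 0.00194). Their vector difference was 0.58 ± 0.12 (limma, adjusted p = 0.0410). It no longer passed without any of 12 single arrays (adjusted p up to 0.117) or without the 3 narrowest arrays (0.69, adjusted p = 0.0569).

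GPIHBP1 is made by endothelial cells, so the mean of 9 endothelial markers was read beside it. In MUT the marker mean of CT1 was 10.43 ± 0.05, that of CT7 10.43 ± 0.05, that of CT13 10.43 ± 0.11 and that of CT19 10.57 ± 0.04. In CON the means, in the same order of times, were 10.54 ± 0.01, 10.41 ± 0.13, 10.29 ± 0.09 and 10.31 ± 0.08. At CT19 the marker means ran from 10.53 to 10.61 in MUT and from 10.23 to 10.40 in CON, so they moved the same way as Gpihbp1, and 1 of the 9 markers (Cldn5, a tight junction protein of endothelium) was called higher in MUT. In MUT 0 of the 9 had a called rhythm and in CON 5 (Cldn5, Kdr, Cdh5, Flt1 and Tie1), or 4 without the 3 narrowest arrays, and the rhythm differed for 1 (Cldn5). Beside these counts, the shares of all genes were 0.348% for the MUT rhythm, 17.1% for the CON rhythm and 1.44% for the rhythm difference. The share called higher in MUT at CT19 was 1.93%. The median CT19 difference of the 9 markers was 0.24, beside -0.00034 over all genes. Their median rhythm difference was 0.37, beside 0.19 over all genes. The part of these markers in the Gpihbp1 result was not tested.

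**Figure D4:**
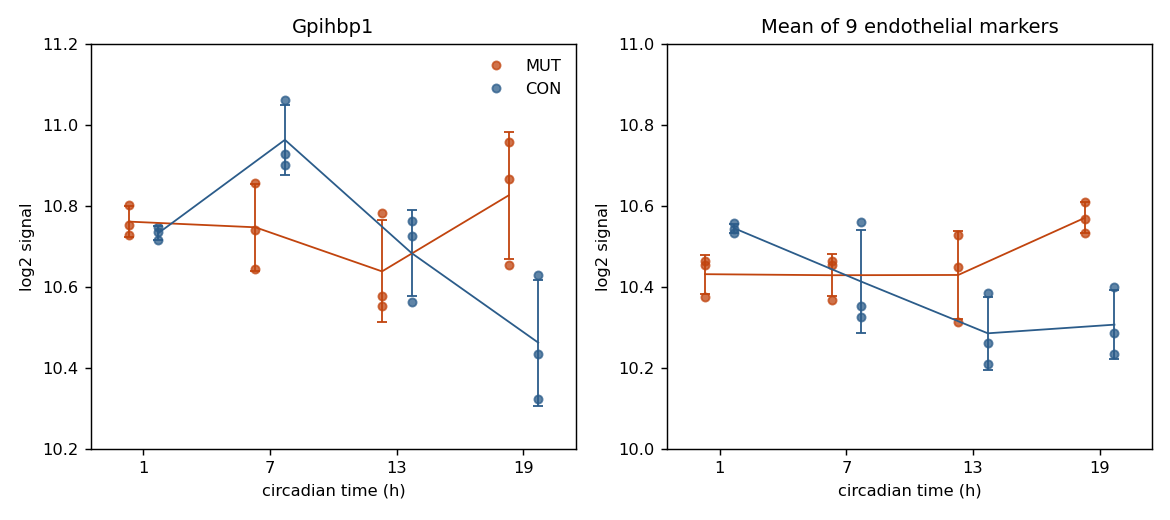
Log2 signal of Gpihbp1 (left) and mean log2 signal of 9 endothelial markers (right) by circadian time (h), with MUT in orange left of CON in blue. Points are single mice, lines join group means and bars are SD (n = 3). In CON Gpihbp1 was highest at CT7 and the marker mean at CT1, while at CT19 both were higher in MUT.

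Lmf1, the folding factor, had log2 signals between 9.81 and 10.07 in all 24 mice. Its group means at CT1, CT7, CT13 and CT19 were 9.92, 9.97, 9.92 and 9.85 in MUT and 10.01, 9.86, 9.92 and 9.92 in CON. The fitted cosine was 0.12 ± 0.06 in MUT (limma, adjusted p = 0.523) and 0.11 ± 0.06 in CON (adjusted p = 0.371). The daily mean difference was -0.01, with a 95% interval from -0.08 to 0.05, and at CT7 the ranges did not overlap although the difference of 0.12 ± 0.06 did not pass (limma, adjusted p = 0.292; 0.764 without the 3 narrowest arrays).

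The fitted peak of Angptl4 came 7.68 ± 0.90 h earlier in MUT than in CON, the only shift here between 2 called rhythms. Those of Angptl8 and Gpihbp1 came 5.95 ± 1.20 h and 7.81 ± 2.39 h earlier, but their MUT rhythms were not called. The sizes in MUT were 77.7% of that in CON for Angptl4, 41.0% for Angptl8 and 29.0% for Gpihbp1. For scale, the 17 listed clock genes were all called in CON, and 12 of them in MUT too. These 12 all peaked earlier in MUT, by 2.36 to 5.71 h with a median of 4.46 h. The others, not called in MUT, as was so for Angptl8 and Gpihbp1, peaked earlier by 2.24 h (Ciart) to 5.99 h (Bhlhe40). The shifts without the 3 narrowest arrays were 7.98 h for Angptl4, 5.93 h for Angptl8 and 8.25 h for Gpihbp1, and 2.53 to 5.90 h for 12 clock genes. The plot of peak shifts places the regulators beside these genes, and whether their shifts differ was not tested.

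**Figure D5:**
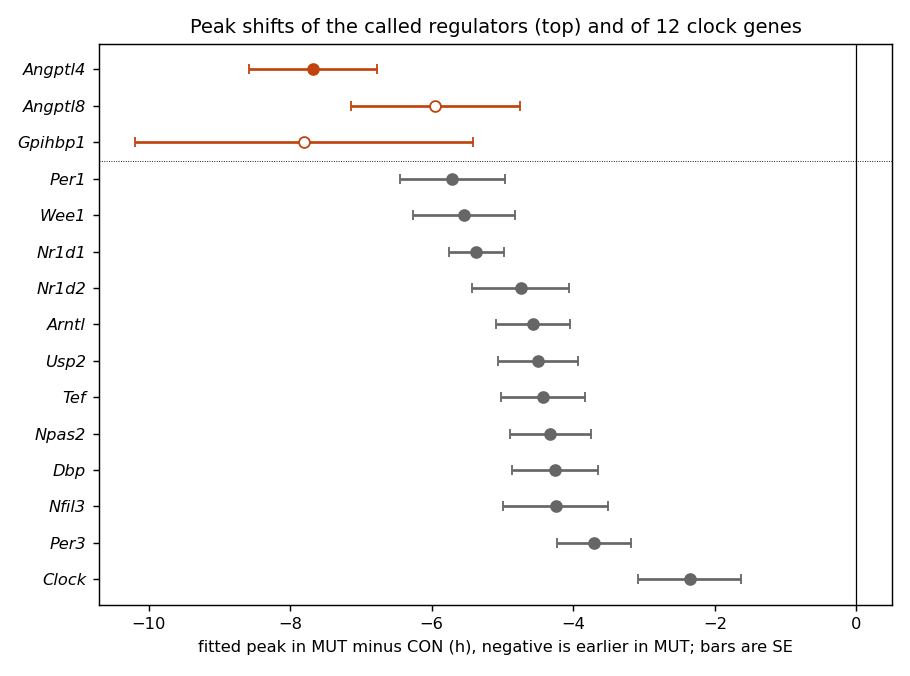
Fitted peak time in MUT minus that in CON (horizontal axis, h; negative is earlier in MUT) for the 3 regulators with a called rhythm in CON (top, orange) and for 12 clock genes called in both genotypes (grey). Bars are SE, and open points mark genes whose MUT rhythm was not called. Angptl4 lies at -7.68 h and the clock genes between -5.71 and -2.36 h.

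Mice of a group that were high in 1 of the 5 genes were not shown to be high or low in another. Of the 10 pairs, 0 passed after adjustment by the permutation test within groups. The largest correlation over the 24 arrays was that of Lpl and Lmf1, at 0.59 (p = 0.0251, adjusted p = 0.251; Spearman 0.55, p = 0.0356, adjusted p = 0.356). It was 0.44 without the 2 arrays whose Lpl deviations lay farthest from the median. It was 0.44 in MUT alone and 0.79 in CON alone (permutation, adjusted p = 0.755 and 0.301).

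The genes whose signals ran most like each regulator over the 24 arrays are given as a description, with Pearson's r. Spearman's rho for these genes lay between 0.72 and 0.89 for Angptl8, Angptl4, Gpihbp1 and Lmf1. For Angptl8 they were Ppp1r3c (0.93), Mid1ip1 (0.91) and Ppp1r3b (0.91). The Ppp1r3 genes encode proteins that bring protein phosphatase to glycogen. For Angptl4 they were Ssh2 (0.86), Gba2 (0.84) and the endothelial gene Cldn5 (0.82). For Gpihbp1 they were Rnf19b (0.88), Lnx1 (0.86) and Fbxo21 (0.85). For Lpl they were Mocs1 (0.82), Ndufb8 (0.80) and Gpt2 (0.80), where Spearman's rho was lower at 0.48, 0.70 and 0.64. For Lmf1 they were Sfxn2 (0.81), Celf2 (0.71) and Nr3c1 (0.71), which encodes the glucocorticoid receptor.

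Around the 5 genes, 38 of 47 listed genes of the same pathway were tested in 5 lists. Of the others, Lipi, Liph and Pnliprp1 were under the filter on low signals, and the rest were not analysed here. Of the 38, 0 had a called rhythm in MUT, beside 0.348% of all genes, and 9 in CON, beside 17.1%. The rhythm itself differed between the genotypes for 1 (Slc27a1). Counts of calls made within 1 genotype, here and in the lists below, do not compare the genotypes. At CT19 4 differed, at CT7 2, and at CT1 and CT13 0, by limma. In the daily mean 9 differed. These shares of 23.7%, 2.63%, 10.5%, 5.26% and 23.7% for the CON rhythm, the rhythm difference, CT19, CT7 and the daily mean stand beside the shares of all genes given above. Without the 3 narrowest arrays the counts were 2 (Slc27a1 and Scarb1), 1 (Slc27a1), 2 (Srebf1 and Mlxipl), 1 (Slc27a1) and 1 (Slc27a1), so the other calls described next ended without those arrays.

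Among 15 cofactors and further regulators, 0 had a called rhythm in MUT and 2 in CON. The median fitted size was 0.18 in both genotypes, beside 0.13 over all genes in MUT and 0.18 in CON. Apoc1, an apolipoprotein that hinders the enzyme, had 1.01 ± 0.26 in CON with a peak at CT3.14 (limma, adjusted p = 0.0264), and Furin, a protease that cleaves the enzyme and its inhibitors, had 0.23 ± 0.06 (adjusted p = 0.0424). At CT19 Apoc2, the enzyme's activating cofactor, was lower in MUT, at 8.40 ± 0.09 in MUT and 8.77 ± 0.25 in CON (-0.37 ± 0.10; limma, adjusted p = 0.0443). Hspg2, a heparan sulfate proteoglycan, was higher by 0.33 ± 0.09 (limma, adjusted p = 0.0443). Over the day Apoc1 was lower in MUT by a difference of -0.36 ± 0.13 and Apoc2 by -0.17 ± 0.05, whereas Sel1l, which acts in the folding of the enzyme, and Lmf2 were higher by 0.14 ± 0.04 and 0.10 ± 0.03 (limma, adjusted p from 0.0180 to 0.0483).

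Among 7 genes of fatty acid uptake, 0 had a called rhythm in MUT and 3 in CON. Their median fitted size was 0.07 in MUT and 0.31 in CON, beside 0.13 and 0.18 over all genes. Slc27a1, a fatty acid transporter, had 0.61 ± 0.08 in CON with a peak at CT6.58 (limma, adjusted p = 0.000142) and a fitted 0.05 ± 0.08 in MUT (adjusted p = 0.933). The rhythms of Slc27a1 differed by 0.66 ± 0.11 (limma, adjusted p = 0.00927). At CT7 Slc27a1 averaged 11.72 ± 0.08 in MUT and 12.30 ± 0.09 in CON (-0.58 ± 0.08; limma, adjusted p = 0.000405). Got2 (0.39 ± 0.08, CT18.1) and Slc27a4 (0.31 ± 0.08, CT21.5) were also rhythmic in CON (limma, adjusted p = 0.00517 and 0.0279). In the daily mean Slc27a1 was lower in MUT (-0.24 ± 0.04) and Cav1 (0.11 ± 0.03) and Got2 (0.12 ± 0.04) were higher.

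Among 10 transcription factors known to act on these genes, 0 had a called rhythm in MUT and 3 in CON. Their median fitted size was 0.20 in MUT and 0.21 in CON. At CT19 2 of the 10 were lower in MUT, beside 0.812% of all genes, and the list's median difference was -0.10, beside -0.00034 over all genes. Srebf1, a driver of fat synthesis, averaged 10.47 ± 0.07 in MUT and 11.32 ± 0.32 in CON (-0.85 ± 0.15; limma, adjusted p = 0.00613). Mlxipl, a glucose-sensing factor, averaged 10.59 ± 0.21 in MUT and 11.26 ± 0.33 in CON (-0.66 ± 0.14; limma, adjusted p = 0.0146). The rhythmic genes in CON were Ppara (0.45 ± 0.11, CT4.48), Ppard (0.29 ± 0.07, CT17.2) and Hif1a (0.28 ± 0.08, CT18.8), with limma adjusted p of 0.0198, 0.0257 and 0.0421. Ppard was higher in MUT at CT7 by 0.32 ± 0.07 (limma, adjusted p = 0.0167), and Hif1a over the daily mean by 0.16 ± 0.04 (adjusted p = 0.00918). Pparg, Nr1h3, Rxra, Nr3c1 and Tfeb had no call in any of these comparisons.

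Of 4 lipoprotein receptors, Scarb1, a receptor for high-density lipoprotein, was rhythmic in CON (0.43 ± 0.08, CT5.40; limma, adjusted p = 0.00454), and 0 of 4 were called in MUT or between genotypes. Their median fitted size was 0.16 in MUT and 0.09 in CON. Of the other lipases of the family 2 were tested, and Pnliprp2 was lower in MUT in the daily mean (-0.12 ± 0.04; limma, adjusted p = 0.0301). The median daily mean difference of the pair was -0.12, beside 0.0034 over all genes.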

How the data were processed

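RNA was extracted with Trizol and given a biotin label, per the labels' protocols. The deposited values are log2 signals per probe set, which the authors derived by RMA in Affymetrix Expression Console, per the submitters' processing notes. Versions, settings and genome build are not given in those sources. Precision is limited by 3 arrays per group. The design text counts 3 mice per group and states nothing on litters or days.

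Of 34390 probe sets on the array, 23521 had 1 symbol, 1814 more than 1 and 9055 none, and 193 single symbols found no match in GRCm38.p6. Each gene was read on its brightest probe set, and mean signals below 7.42, the 30th percentile, were excluded. limma 3.58.1 (R 4.3.3) fitted 8 group means to the 24 arrays, with 16 residual degrees of freedom. Rhythms used 24-h cosine and sine contrasts (F test, 2 degrees of freedom), and genotype tests were two-sided. P-values were adjusted by Benjamini-Hochberg over 15526 genes, and within-group correlations over 10 pairs.

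The 5 genes, the lists and the tests were chosen with earlier results of these data known. All 5 genes are named, with up to 4 called pathway genes per list and comparison by smallest p, and the 3 genes most correlated with each. Called marker genes were named, where 5 or fewer, after their values were seen. On simulated data with 200 of 15526 genes changed 1.5-fold, the fit recovered 87% of CON rhythms, 88.5% of MUT rhythms, 52.5% of rhythm differences and 93.5% of CT19 differences. False calls numbered 9, 8, 9 and 8 in that order. The simulated noise was independent between genes and arrays did not differ in spread. The shares called in the data were also other than simulated, so these rates need not hold here.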

Additional observations from a re-analysis of the deposited data

Results flagged for a closer look

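The 24-h rhythm differed between MUT and CON, by a test of the difference itself, for 3 of the 5 genes. The vector difference, MUT minus CON, was 3.00 peak to trough on the log2 scale for Angptl8 (limma, adjusted p = 0.00391), 1.39 for Angptl4 (adjusted p = 0.000972) and 0.58 for Gpihbp1 (adjusted p = 0.0410). The first 2 held under each of the 24 single omissions and the 11 other settings tried, and that of Gpihbp1 did not, as given among the settings. Single mice were not tested for standing apart from their group of 3.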

How the results depend on the processing

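The CON rhythms of Angptl4, Angptl8 and Gpihbp1 kept their direction and passed under every setting applied to them. So did the CT19 and rhythm differences of Angptl4 and Angptl8. The settings were 24 single omissions, the letter block, a shift to equal array medians, quantile normalization and other level filters. Further ones were other uses of probe sets, array weights, trended variance and a fit without the 3 narrowest arrays (added after seeing the data). Arrays of 1 genotype or time alone served for CON rhythms and CT19 differences, not for rhythm differences. An F test without a cosine served for CON rhythms and rhythm differences, not for CT19 differences. The count of 1 MUT rhythm was 0 with no level filter (Angptl4 adjusted p = 0.0529), with all probe sets (0.0684), with MUT arrays alone (0.0557) and without the 3 narrowest arrays (0.0633), and 2 with the F test over time points, where Angptl8 passed; over single omissions it ran from 0 to 2. With array weights 1 gene was called at CT1 (Angptl4) and 1 at CT7 (Gpihbp1). At CT13 omissions gave 0 to 1, with Angptl8 called without replicate 1 of MUT. The Gpihbp1 rhythm difference lost its call with arrays shifted to the same median (adjusted p = 0.0644), no level filter (0.0570), all probe sets (0.0591), the F test (0.0628) and without the 3 narrowest arrays (0.0569), and its CT19 difference with CT19 arrays alone (0.0899). Over all genes, leaving out those 3 arrays gave 1011 CON rhythms (2650 with them, 918 shared), 296 daily mean differences (3365 with them) and 49 differences at CT7 (629 with them), with fewer arrays in the fit; at CT13 it gave 0 by limma (50 with them; 1367 at an unadjusted p under 0.05) and at CT19 430 (425 with them). The causes were not tested.

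Whether the replicate letters pair mice was not established, and correlations between arrays cannot decide it. Deviations of same-letter arrays of different groups correlated between -0.43 and 0.34, and 17 of 84 pairs were over 0.1. Those of different-letter arrays of different groups correlated between -0.38 and 0.45, and 41 of 168 pairs were over 0.1. With the replicate block the counts stayed at 3 CON rhythms, 1 MUT rhythm, 3 rhythm differences and 3 CT19 differences (Angptl8 CT19 difference -2.56, adjusted p = 0.000233 with limma; Gpihbp1 rhythm difference adjusted p = 0.0495).

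Signs turned only for values that were not called. Under quantile normalization the daily mean difference was -0.035 for Angptl4 and -0.011 for Gpihbp1, and the CT13 difference -0.047 for Angptl4. With arrays shifted to the same median the daily mean difference was 0.028 for Lpl and 0.032 for Lmf1, and the CT13 difference 0.0073 for Lpl, 0.017 for Gpihbp1 and 0.060 for Lmf1. With the mean of both Lpl probe sets its daily mean, CT1 and CT13 differences were 0.029, 0.042 and 0.055. Array weights gave Lmf1 0.0078 at CT13. Without the 3 narrowest arrays the daily mean difference was -0.017 for Angptl4 and -0.0071 for Gpihbp1, and at CT13 -0.094 for Angptl4 and 0.015 for Lmf1. In CON alone the within-group correlation was 0.21 for Angptl4 and Lmf1, against -0.0087 over all arrays, and 0.037 for Gpihbp1 and Lmf1, against -0.30 over all arrays and -0.74 in MUT alone. Over single omissions the daily mean difference ran from -0.022 to 0.048 for Angptl4, from -0.17 to 0.080 for Angptl8 and from -0.031 to 0.0033 for Lpl. The CT13 difference ran from -0.094 to 0.13 for Angptl4, from -0.11 to 0.025 for Lpl and from -0.025 to 0.032 for Lmf1, and the CT1 difference of Lpl from -0.061 to 0.021.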
